A study of Mus musculus with 22 samples.

Results

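Left ventricles of VCP transgenic mice were compared after 5 weeks and after 2 weeks of pressure overload. VCP TG hearts carry a transgene for valosin-containing protein (VCP). The overload came from transverse aortic constriction (TAC), in which a band on the aorta makes the left ventricle pump against a higher pressure. The comparison holds 6 of the 22 libraries of the series, 3 of VCP TG hearts at 5 weeks of TAC and 3 of VCP TG hearts at 2 weeks of TAC, chosen by their labels. The study is about VCP in hearts that enlarge and weaken under such a load. Set beside them were 4 libraries of wild-type (WT) hearts at 5 weeks of TAC and 4 of WT hearts at 2 weeks of TAC. VCP TG sham hearts, operated without the constriction, gave 4 libraries in the 2-week table and none at 5 weeks here. All mice were of the FVB strain and aged 3 to 5 months per the labels. The promoter and the species of the transgene are not given in the sources used here, nor are the animals behind the libraries. Each p-value here therefore covers the spread among the libraries, which may be technical.

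VCP is an ATPase that pulls ubiquitinated proteins out of membranes and complexes, helped by adaptor proteins, and hands them on for degradation. A ventricle under pressure overload thickens, re-expresses fetal sarcomere and natriuretic peptide genes, and over time can dilate and fail. Immediate early genes are switched on within minutes of a stimulus, without new protein synthesis, and many code for transcription factors or feedback inhibitors. Glucocorticoid-responsive genes follow the hormone rhythm of the day and the state of fasting or stress.

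The time points were deposited as separate tables, 1 for each, so what belongs to the time and what to the table cannot be told apart in any difference below. Each deposited column gives transcripts per 1000000 (TPM). Levels below are rescaled TPM, in which the nuclear protein-coding genes of a library sum to 1000000. Differences are on the log2(rescaled TPM + 1) scale, 5 weeks minus 2 weeks, with their standard error. A gene passed at a limma adjusted p below 0.05. The depth of the libraries is unknown, because TPM keeps no record of read number.

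Among the 6 libraries, 2 stood apart in Vcp or in atrial markers, in ways the labels do not give. Vcp itself (ENSMUSG00000028452, chromosome 4, 42979963 to 43000507, minus strand) lay at 296, 341 and 114 TPM in the libraries labelled VCP TG 5 weeks, against 259, 326 and 355 TPM in those labelled VCP TG 2 weeks. The library labelled VCP TG 5 weeks replicate 3, at 114 TPM, was the low one, below the 144 to 148 TPM of the lower 3 WT libraries at 2 weeks. In WT hearts Vcp lay at 179, 334, 354 and 170 TPM at 5 weeks and 345, 144, 148 and 148 TPM at 2 weeks, so that 3 WT libraries were as high as VCP TG ones. The Vcp difference in VCP TG hearts was -0.46 (exact two-sided permutation p = 0.6, where 0.1 is the smallest p that 3 against 3 allows), and 0.03 without that library. Markers of atrial tissue, which a ventricular sample should largely lack, summed to 272 to 1399 TPM at 5 weeks and to 522 to 11950 TPM at 2 weeks, and the 11950 TPM belonged to VCP TG 2 weeks replicate 2. Values without both libraries are therefore given beside many of the results. The predicted gene Gm10800 alone took 8.47% to 20.7% of nuclear protein-coding TPM at 5 weeks and 16.2% to 29.9% at 2 weeks. It took 3.15% to 12.97% in WT hearts at 5 weeks and 2.82% to 7.73% in WT hearts at 2 weeks. What Gm10800 takes lowers the level of all other genes of that library. The 29.9% belonged to VCP TG 2 weeks replicate 1, where predicted genes together took 45.9%. That library also had the lowest share of mitochondrially encoded genes of the 6, 40.2% of TPM. It is not 1 of the 2 libraries above, so values without both still include it.

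In VCP TG hearts, 335 of 7204 named nuclear protein-coding genes rose at 5 weeks relative to 2 weeks, which is 4.65% of those tested, and 57 fell, which is 0.791%. Together these 392 genes are 5.44% of those tested. That split followed the scaling. Scaled to named genes only, leaving predicted genes out of the total, 446 rose (6.19%) and 256 fell (3.55%). On TPM as deposited 98 rose and 372 fell, after quantile normalization 310 rose and 293 fell, and with a median-of-ratios factor 272 rose and 323 fell. The median difference of all genes moved with it, from -0.17 on deposited TPM to 0.14 on the main scale. No gene passed in opposite directions under any pair of the main scale and another. Under all 5 scalings 91 genes rose (1.26%) and 45 fell (0.625%), and these carry the account below.

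**Figure D1:**
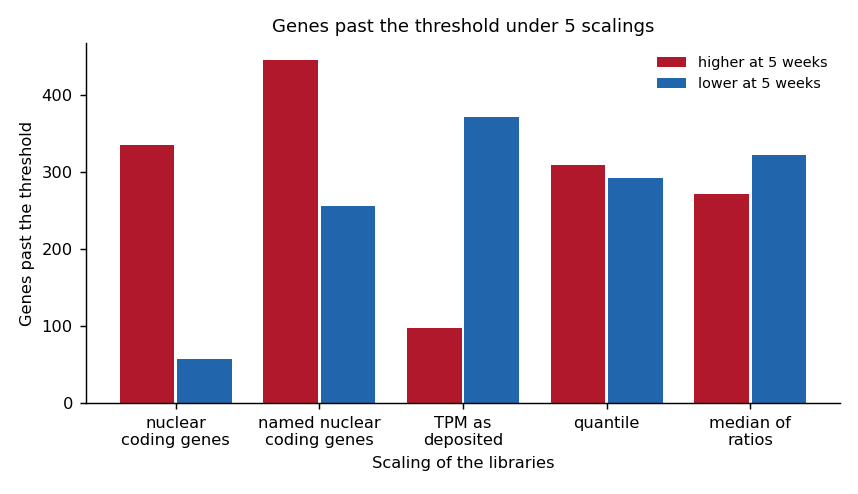
Number of genes past the threshold in VCP TG hearts, 5 against 2 weeks of TAC, by the scaling of the libraries. Red bars count genes higher at 5 weeks and blue bars genes lower at 5 weeks, of 7204 tested. The split runs from 335 higher and 57 lower with all nuclear coding genes as the total to 98 higher and 372 lower on TPM as deposited.

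The calls also depended on the libraries in the fit. With all 14 TAC libraries sharing one estimate of the spread, 35 genes rose and 2 fell, Igtp and Pigp, and all 37 were among the 392 genes of the main comparison. With all 22 libraries limma called 0 genes, with 912 at an unadjusted p below 0.05. Without both doubted libraries 122 rose (1.69%) and 11 fell (0.153%). Without VCP TG 2 weeks replicate 1 alone, the library of the highest Gm10800 share, 262 genes passed, 158 of them higher. With the replicate number as a block, 802 genes passed, 678 higher and 124 lower. On the main scale limma's median prior degrees of freedom were infinite. A gene with an infinite value took the spread of genes of its level, which makes the smallest p-values very small. Genes of unusually wide spread, such as Nppa and Prg4, had larger standard errors. The adjusted p on the named-gene scale, where the median was 3.64, is therefore printed beside the smallest p-values.

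Immediate early genes were among the largest rises. The 12 largest rises and the 12 largest falls were picked among genes whose groups did not overlap. Their separation was therefore set by that rule. Of the 37 early genes listed, 20 were expressed enough to be tested. Of these 20, Egr1, Junb, Nr4a1 and Btg2 reached the level needed for testing at 5 weeks alone. On the main scale 15 rose and 1 fell, and 11 rose under all 5 scalings. Over all genes tested 4.65% rose and 0.791% fell, and 1.26% rose under all 5 scalings. In 16 of the 20 every library of 5 weeks lay above every library of 2 weeks, and in 0 of them below, a separation found upward in 17.8% of all genes tested and downward in 2.96%. Their median difference was 1.24, against 0.14 for all genes, and 1.10 to 1.52 with any 1 library left out. Without both doubted libraries 12 rose and 2 fell, with a median of 1.36 against 0.29 for all genes, and in the fit of 14 libraries 3 rose. In 12 of the 15 that rose, every VCP TG sham library lay above every 2-week library, against 12.3% of all genes tested. In 12 of the 15 the 5-week mean lay between those of sham and 2 weeks, against 43.4% of all genes tested. Among the 91 genes that rose under all 5 scalings, the same shares were 23.1% and 12.1%. The 15 genes were chosen for 2-week levels below those of 5 weeks, which favours sham hearts lying above 2 weeks as well. Gm10800 took 1.11% to 7.52% in VCP TG sham hearts, against 16.2% to 29.9% at 2 weeks, which lowers all other 2-week levels. How far the choice of genes and the scaling set the low 2-week levels was not tested.

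Egr1, a zinc finger transcription factor, had 139, 236 and 96.7 TPM at 5 weeks and 6.37, 12.2 and 7.87 TPM at 2 weeks. Each 5-week library lay far above every 2-week library, where the naming rule required that the groups not overlap. The difference was 3.96 ± 0.25 (limma adjusted p = 2.88e-50, and 0.00114 on the named-gene scale). In VCP TG sham hearts, which share the 2-week table, Egr1 lay at 111 to 676 TPM, a range that holds 2 of the 3 libraries of 5 weeks.

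Junb, a subunit of the AP-1 transcription factor, had 29.1, 51.0 and 41.9 TPM at 5 weeks and 5.45, 7.37 and 5.18 TPM at 2 weeks. Nr4a1, an orphan nuclear receptor, had 33.5, 58.9 and 51.5 TPM at 5 weeks and 6.13, 8.78 and 7.03 TPM at 2 weeks. The groups did not overlap for either gene, which the rule for naming the largest rises required. Junb differed by 2.55 ± 0.26 (adjusted p = 7.43e-19, named-gene scale 0.00179) and Nr4a1 by 2.53 ± 0.26 (adjusted p = 1.74e-19, named-gene scale 0.00133). Both kept passing with any 1 library left out on either scale. Those fits kept the same tested genes, and both genes were tested only because of their 5-week levels.

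Other early genes that rose code for proteins known to limit such responses. Zfp36, tristetraprolin, which marks inflammatory mRNAs for decay, had 72.6, 114 and 90.1 TPM at 5 weeks against 18.1, 26.3 and 20.8 TPM at 2 weeks. Dusp1, a phosphatase that switches off MAP kinases, had 96.7, 144 and 110 TPM at 5 weeks against 28.1, 40.3 and 43.1 TPM at 2 weeks. Btg2, an antiproliferative cofactor of mRNA deadenylation, had 28.6, 48.1 and 38.6 TPM at 5 weeks against 7.61, 11.7 and 11.3 TPM at 2 weeks. All 3 genes were separated between the time points, with differences of 2.03 ± 0.25, 1.63 ± 0.25 and 1.80 ± 0.26 (adjusted p on the named-gene scale 0.00133, 0.00133 and 0.00336).

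Ccn1, a secreted matrix protein that binds integrins, had 110, 166 and 431 TPM at 5 weeks and 27.4, 39.1 and 37.8 TPM at 2 weeks. Its highest value belonged to the library labelled VCP TG 5 weeks replicate 3, and the groups stayed apart without it. Ccn1 differed by 2.498 ± 0.26, with an adjusted p of 0.0239 on the named-gene scale. The kinase Sgk1 and the transcription factors Klf2 and Jun rose by 1.51, 1.24 and 1.16 under all 5 scalings. Mafk, Klf4 and Klf6 rose on the main scale alone, and Jund under 2 of the 5.

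Of the 20 tested genes, 2 went the other way. Atf3, a stress-induced transcription factor, had 4.39, 6.46 and 22.2 TPM at 5 weeks and 15.5, 18.2 and 25.0 TPM at 2 weeks. Its groups overlapped through the library labelled VCP TG 5 weeks replicate 3. It fell by 1.05 on the main scale (adjusted p = 0.0099) and did not pass on the other 4. Nr4a3, a relative of Nr4a1, had 21.1, 20.9 and 106 TPM at 5 weeks and 36.2, 59.5 and 61.0 TPM at 2 weeks, and did not pass (-0.48 ± 0.75). Without both doubted libraries Atf3 fell by 1.71 and Nr4a3 by 1.13, and both passed (adjusted p = 0.000152 and 0.0412).

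The other 17 listed early genes lay too low to be tested. Fos, the partner of Jun in AP-1, had 14.5, 26.1 and 11.1 TPM at 5 weeks and 1.66, 2.07 and 1.86 TPM at 2 weeks. Egr3, a relative of Egr1, had 12.7, 23.7 and 8.71 TPM at 5 weeks and 1.32, 1.65 and 0.858 TPM at 2 weeks. Ier2 had 18.7, 29.1 and 12.2 TPM at 5 weeks and 2.27, 3.04 and 2.76 TPM at 2 weeks. These 3 were named after their values were seen. Every library of 5 weeks lay above every library of 2 weeks in 11 of the 17, and in the other 6, among them Nr4a2, Dusp5 and Socs3, the groups overlapped. The share of such separation among all genes too low to test was not taken, so this count is not read as a result. Some levels lay near 0, as for Fosb, at 2.04 to 3.32 TPM at 5 weeks and 0.259 to 0.549 TPM at 2 weeks.

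**Figure D2:**
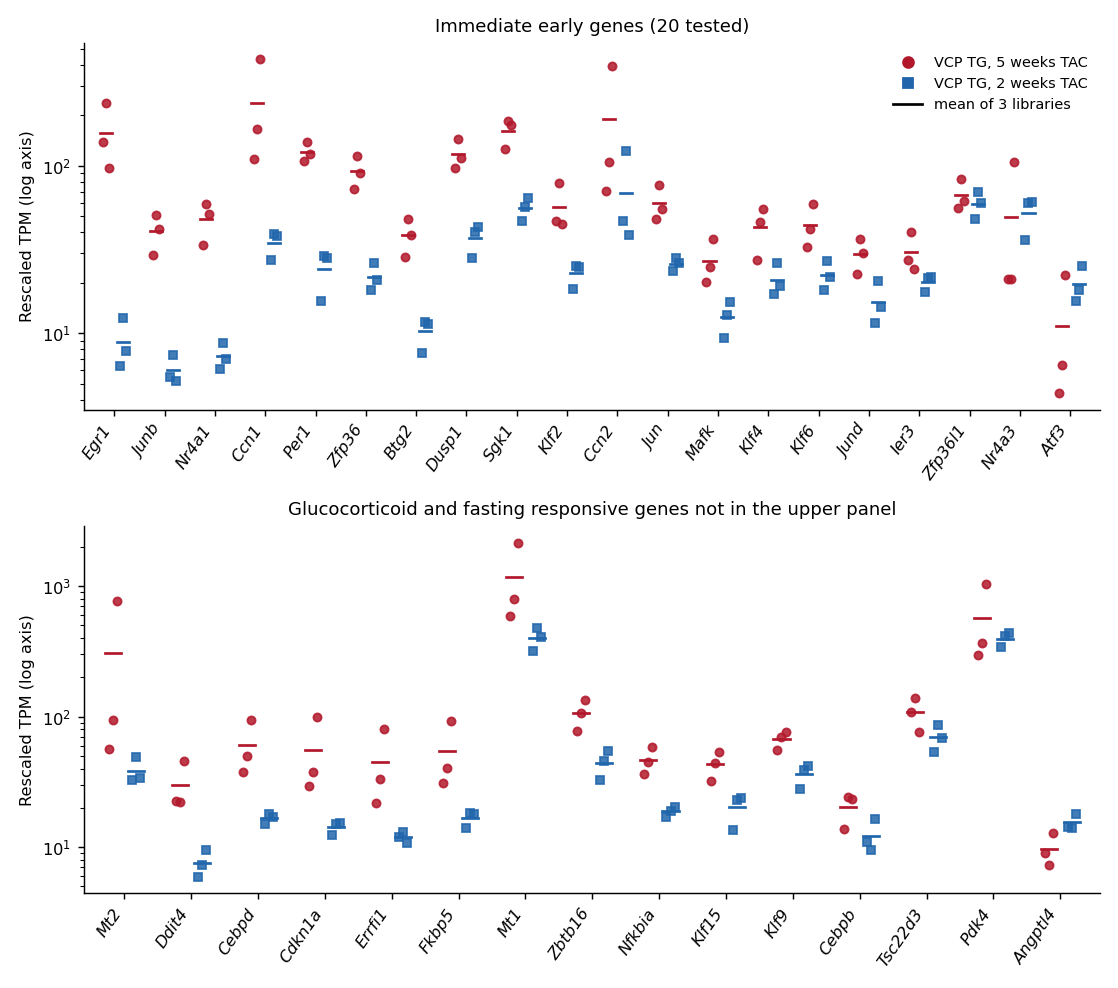
Rescaled TPM (log axis) of the tested immediate early genes, above, and of the tested glucocorticoid and fasting responsive genes not already shown, below. Red circles are the 3 VCP TG libraries of 5 weeks, blue squares the 3 of 2 weeks, and bars their means. Egr1 lies at 96.7 to 236 TPM at 5 weeks and 6.37 to 12.2 TPM at 2 weeks, while Atf3 lies the other way, at 4.39 to 22.2 and 15.5 to 25.0 TPM.

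Promoters of 5 genes that rose are shown because they hold motifs by which such genes are known to be switched. Each is the RefSeq sequence (GRCm38.p6) of the 250 bases before the start, 5′ to 3′ on the gene's strand, with motif matches in capitals. The motifs searched on both strands were the CArG box of serum response factor, TGACGTCA of cyclic AMP response element binding factors, CACGTG of clock and MYC factors (the E-box), and the glucocorticoid response element. Zfp36 (chr7:28379229-28379478, minus strand) and Acta1, skeletal alpha-actin (chr8:123894776-123895025, minus strand), hold a CArG box whose first base lies 58 and 73 bases before the start. Btg2 (chr1:134079156-134079405, minus strand) and Dusp1 (chr17:26508473-26508722, minus strand) hold TGACGTCA 166 and 143 bases before the start. Dusp1 also holds CACGTG 126 bases before the start, and Per1 (chr11:69098699-69098948, plus strand) holds it 166 bases before a start. The starts are those of the RefSeq table, and for Zfp36, Dusp1 and Per1 they lie inside the wider span that GENCODE gives the gene. No match overlaps another.
Zfp36: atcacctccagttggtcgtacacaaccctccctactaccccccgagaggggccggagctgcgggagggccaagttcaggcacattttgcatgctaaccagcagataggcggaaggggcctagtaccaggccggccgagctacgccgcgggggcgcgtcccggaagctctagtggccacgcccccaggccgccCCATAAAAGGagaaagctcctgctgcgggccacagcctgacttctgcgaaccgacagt
Acta1: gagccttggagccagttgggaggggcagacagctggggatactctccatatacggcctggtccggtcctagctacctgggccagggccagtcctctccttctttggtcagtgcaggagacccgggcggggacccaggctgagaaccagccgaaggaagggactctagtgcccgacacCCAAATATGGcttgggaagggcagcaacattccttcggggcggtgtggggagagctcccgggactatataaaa
Btg2: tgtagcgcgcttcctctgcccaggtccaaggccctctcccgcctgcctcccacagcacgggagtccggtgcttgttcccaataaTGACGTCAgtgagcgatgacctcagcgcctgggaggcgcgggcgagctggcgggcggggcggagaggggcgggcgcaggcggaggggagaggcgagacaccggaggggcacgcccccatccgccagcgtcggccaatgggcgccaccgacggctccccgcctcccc
Dusp1: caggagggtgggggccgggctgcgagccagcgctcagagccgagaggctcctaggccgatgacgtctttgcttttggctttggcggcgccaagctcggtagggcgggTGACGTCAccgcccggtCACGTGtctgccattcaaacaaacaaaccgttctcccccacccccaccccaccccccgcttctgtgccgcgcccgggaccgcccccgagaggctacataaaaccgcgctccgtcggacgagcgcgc
Per1: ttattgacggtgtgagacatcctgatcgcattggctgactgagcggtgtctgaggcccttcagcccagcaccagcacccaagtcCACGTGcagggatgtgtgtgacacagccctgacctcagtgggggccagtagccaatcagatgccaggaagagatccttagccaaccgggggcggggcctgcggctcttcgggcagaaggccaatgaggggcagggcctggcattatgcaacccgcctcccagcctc

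Of the 15 early genes that rose, 14 had such sequences, at 20 starts, and Egr1 had none in the table. The CArG box was found at 1 of the 20 starts, TGACGTCA at 2, CACGTG at 6 and the glucocorticoid response element at 2, those of Jund and Sgk1. Over all 32851 starts of the table the shares were 1.47%, 1.55%, 6.02% and 0.387%, and over the 7641 starts of the genes tested 1.36%, 2.54%, 8.1% and 0.275%. Of the 46 starts of genes that fell under all 5 scalings 6 held CACGTG. A match is a run of letters and no evidence that a factor binds there.

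Genes that respond to glucocorticoids and fasting also rose. Of 20 listed, 18 were tested and 13 rose, 7 of them under all 5 scalings, and 0 fell. The shares of all genes tested that rose were 4.65%, and 1.26% under all 5 scalings. The median difference was 1.41, against 0.14 for all genes, and 1.05 to 1.70 with any 1 library left out. Without both doubted libraries 8 rose and the median was 1.10, and in the fit of 14 libraries 2 rose. In 7 of the 13 that rose, every VCP TG sham library lay above every 2-week library, against 12.3% of all genes tested. In 2 of the 13 the 5-week mean lay between those of sham and 2 weeks, against 43.4% of all genes tested. These 13 were likewise chosen for rising. Of all genes that rose under all 5 scalings, 23.1% had every sham library above 2 weeks. The list shares Per1, Dusp1 and Sgk1 with the early genes.

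Per1 (chromosome 11, 69095217 to 69109960, plus strand), a repressor of the circadian clock that glucocorticoids also induce, had 106, 139 and 117 TPM at 5 weeks and 15.5, 28.8 and 28.2 TPM at 2 weeks. The libraries of 5 weeks were close to each other and far above those of 2 weeks, where the naming rule required that the groups not overlap. The difference was 2.31 ± 0.25 (adjusted p = 6.65e-17, named-gene scale 0.00114), and Per1 also passed in the fit of 14 libraries (0.00903). Of 17 tested genes of the circadian clock Per1 was the only one that rose on the main scale, and 0 fell, with a list median of 0.31 and 2 rises on the named-gene scale.

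Ddit4, an inhibitor of mTOR complex 1, had 22.6, 22.4 and 45.3 TPM at 5 weeks and 5.94, 7.34 and 9.59 TPM at 2 weeks, a difference of 1.79 ± 0.27. Cebpd, a transcription factor of the acute phase, had 37.4, 50.2 and 93.8 TPM at 5 weeks and 14.9, 17.9 and 17.1 TPM at 2 weeks, a difference of 1.70 ± 0.25. Neither gene's groups overlapped, and both rose under all 5 scalings, as did Zbtb16 and Nfkbia, each by 1.24. In several members the library labelled VCP TG 5 weeks replicate 3 was far above the other 2 of its group. Cdkn1a, the cell cycle inhibitor p21, had 29.4, 37.7 and 100 TPM at 5 weeks and 12.4, 15.0 and 15.4 TPM at 2 weeks. Fkbp5, a chaperone of the glucocorticoid receptor, had 30.8, 40.6 and 92.0 TPM at 5 weeks and 14.01, 18.4 and 18.0 TPM at 2 weeks. Both passed on the main scale (adjusted p = 1.99e-08 and 1.11e-06) and missed on the named-gene scale (0.0571 and 0.0599), like Errfi1, an inhibitor of the EGF receptor (0.071). Klf15 and Klf9, targets of the glucocorticoid receptor in the heart, rose by 1.07 and 0.88 under 4 of the 5 scalings. Tsc22d3, another classic target, differed by 0.61 and did not pass (adjusted p = 0.151), and Angptl4 lay lower, by -0.65 (adjusted p = 0.183).

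Other genes among the 12 largest rises were of matrix, cell survival and stress. Thbs1, thrombospondin-1, a matrix glycoprotein that activates TGF-beta, had 24.5, 38.1 and 91.2 TPM at 5 weeks and 5.99, 8.30 and 4.905 TPM at 2 weeks, a difference of 2.63 ± 0.26 (named-gene scale 0.0224). Prg4, lubricin, had 68.8, 166 and 156 TPM at 5 weeks and 15.4, 41.2 and 8.81 TPM at 2 weeks, a difference of 2.69 ± 0.52 (adjusted p = 0.0174). Bcl2l1, the anti-apoptotic protein BCL-XL, had 60.9, 80.7 and 138 TPM at 5 weeks and 14.9, 20.1 and 28.5 TPM at 2 weeks, a difference of 2.05 ± 0.25. Depp1, a FOXO target, had 53.9, 67.9 and 118 TPM at 5 weeks and 18.4, 16.0 and 26.0 TPM at 2 weeks, a difference of 1.89 ± 0.25. In none of the 4 genes did the groups overlap, which the rule for naming the largest rises required. All 4 rose under all 5 scalings, and Thbs1 reached the level needed for testing at 5 weeks alone. Prg4 did not pass when VCP TG 2 weeks replicate 1, VCP TG 5 weeks replicate 2 or the library labelled VCP TG 5 weeks replicate 3 was left out.

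Of 35 tested matrix and fibrosis genes, 6 rose and 1 fell, against 4.65% and 0.791% of all genes tested. Their median was 0.43, against 0.14 for all genes. Under all 5 scalings 5 rose, among them Thbs1 and the basement membrane genes Col4a1, Col4a2 and Hspg2. The basement membrane collagen gene Col4a2 rose by 1.13, its partner Col4a1 by 0.96 and Hspg2, perlecan, by 0.93. These 3 did not pass without both doubted libraries (adjusted p = 0.155, 0.251 and 0.133), while 8 genes of the list rose and 0 fell, with a median of 0.91. With any 1 library left out the list median ran from 0.0996 to 0.67. Efemp1, fibulin-3, fell by 1.02 on the main scale, passed under 3 of the 5 scalings and missed on the named-gene scale (0.0803).

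The fibrillar collagen gene Col1a1 had 33.0, 54.7 and 18.5 TPM at 5 weeks and 16.1, 39.4 and 15.2 TPM at 2 weeks. Postn, periostin, which activated fibroblasts secrete, had 52.6, 105 and 24.3 TPM at 5 weeks and 32.7, 71.8 and 22.9 TPM at 2 weeks. Both groups overlapped and neither gene passed (0.57 ± 0.26 and 0.43 ± 0.62). Without both doubted libraries, which held the lowest value of 5 weeks and the highest of 2 weeks, Col1a1 rose by 1.39 and Postn by 1.41 (adjusted p = 0.00463 and 0.00648). Of 14 tested fibroblast markers 0 rose and 0 fell, by limma on the main or the named-gene scale, and 2 rose without both libraries.

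Some markers of endothelium rose. Of 19 tested endothelial markers 4 rose, 2 of them under all 5 scalings, against 4.65% and 1.26% of all genes tested. Their median was 0.49, against 0.14 for all genes. Rgcc had 66.3, 76.9 and 115 TPM at 5 weeks and 26.9, 25.1 and 33.0 TPM at 2 weeks, a difference of 1.54 ± 0.25. Esam, an adhesion molecule of endothelial junctions, had 63.7, 73.2 and 74.1 TPM at 5 weeks and 25.7, 27.1 and 41.3 TPM at 2 weeks, a difference of 1.17 ± 0.25. Both genes passed, without overlap, and Egfl7 and Robo4 rose by 0.96 and 0.90 under 4 of the 5 scalings. Rgcc alone of the 4 passed without both doubted libraries (adjusted p = 0.0282), and Esam, Egfl7 and Robo4 did not (0.0846, 0.0815 and 0.231). All 20 markers together summed to 2262 to 2845 TPM at 5 weeks and 1468 to 1997 TPM at 2 weeks, with 0 of them absent from every library.

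Of 14 tested smooth muscle and pericyte markers, 3 rose on the main scale and 0 under all 5, against 4.65% and 1.26% of all genes tested. Their median was 0.49, against 0.14 for all genes, with 0 calls in either direction without both doubted libraries. Tagln, Myh11 and Smtn differed by 1.18, 1.01 and 0.83. The 17 markers summed to 1860 to 2606 TPM at 5 weeks and 1208 to 1809 TPM at 2 weeks. In bulk tissue, more cells of a type and more RNA per cell cannot be told apart. The part of these cells in the other differences was not tested. Chemokines and feedback genes of NF-kappaB had a median of 0.46 over 14 tested genes, of which Nfkbia alone rose on the main scale (1.24 ± 0.25) and 0 fell; on the named-gene scale 2 rose.

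Contractile genes differed by less. Of 33 tested genes of the sarcomere and Z-disc, 7 rose on the main scale and 0 under all 5, against 4.65% and 1.26% of all genes tested. Their median was 0.38, against 0.14 for all genes. On the named-gene scale 11 rose and 2 fell, and without both doubted libraries limma called 0. Synpo2l, Myot, Flnc, Tcap, Obsl1 and Mybpc3, among those that rose on the main scale, differed by 0.77 to 1.01. Acta1, skeletal alpha-actin, an isoform of the fetal heart, had 1683, 2968 and 1059 TPM at 5 weeks and 696, 633 and 658 TPM at 2 weeks. It varied widely at 5 weeks without overlap with 2 weeks, and rose by 1.39 ± 0.26 (adjusted p = 1.01e-05, named-gene scale 0.0312) under 4 of the 5 scalings.

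Of 25 tested natriuretic peptide, fetal and hypertrophy genes 2 rose and 0 fell, against 4.65% and 0.791% of all genes tested. Their median was 0.28, against 0.14 for all genes, and 1 rose without both doubted libraries. The gene that rose on the main scale besides Acta1 was Ankrd23, a stretch-responsive ankyrin repeat protein, which had 489, 732 and 588 TPM at 5 weeks and 291, 246 and 258 TPM at 2 weeks and rose by 1.17 ± 0.25 under all 5 scalings, without overlap. The following genes did not pass on the main scale. Myh7, the slow fetal myosin heavy chain, had 774, 1213 and 734 TPM at 5 weeks and 425, 546 and 668 TPM at 2 weeks, without overlap (0.72 ± 0.26, adjusted p = 0.0767, named-gene scale 0.0296). Myh6, the adult fast form, averaged 13844 ± 2134 TPM at 5 weeks and 10792 ± 2462 TPM at 2 weeks (SD, n = 3 each; 0.38 ± 0.26). Nppb, the B-type natriuretic peptide, had 153, 220 and 289 TPM at 5 weeks and 108, 224 and 94.2 TPM at 2 weeks (0.70 ± 0.25, adjusted p = 0.0845). Atp2a2, the calcium pump of the sarcoplasmic reticulum, averaged 2668 ± 455 TPM at 5 weeks and 3014 ± 720 TPM at 2 weeks (-0.16 ± 0.26). Nppa, the atrial natriuretic peptide, had 121, 331 and 17.8 TPM at 5 weeks and 379, 4632 and 55.4 TPM at 2 weeks, overlapping (-2.34 ± 2.21, and 0.46 without both doubted libraries).

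Among 23 tested potassium and sodium channel genes 1 rose and 2 fell, against 4.65% and 0.791% of all genes tested. Their median was 0.41, against 0.14 for all genes. Kcna5, the ultrarapid delayed rectifier channel, had 14.5, 16.1 and 24.7 TPM at 5 weeks and 4.80, 4.06 and 7.22 TPM at 2 weeks, and rose by 1.61 ± 0.30 under all 5 scalings. Kcnj3, an atrial inward rectifier, fell by 1.29 on the main scale but did not pass without VCP TG 2 weeks replicate 2, the atrial-rich library (-0.72). Kcnd2 fell by 0.87 on the main scale alone. The channel counts were 2 higher and 1 lower without both doubted libraries. The 10 tested atrial markers had a median of -1.24, and 0.34 without both doubted libraries.

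Genes that fell formed smaller groups. The 12 largest falls were Angpt1, Retnla, Hspa1b, Igtp, Rnaset2b, Kcnj3, Rarres2, Iigp1, Hbb-bt, Cox5a, G0s2 and Pigp, from -1.80 to -1.13. All but Kcnj3 and Rarres2 fell under all 5 scalings. Angpt1, Retnla, Hspa1b and Igtp reached the level needed for testing at 2 weeks alone. When both doubted libraries were left out, 5 of the 12 passed, Angpt1, Retnla, Hspa1b, Igtp and Iigp1, and 7 did not. Angpt1, a ligand that steadies vessels through the receptor TIE2, had 5.96, 6.04 and 3.59 TPM at 5 weeks and 10.4, 32.8 and 23.6 TPM at 2 weeks (-1.80 ± 0.30, named-gene scale 0.0184). Retnla, a secreted product of alternatively activated macrophages, had 2.25, 7.82 and 5.36 TPM at 5 weeks and 16.7, 16.8 and 14.4 TPM at 2 weeks (-1.58 ± 0.31). Both groups were fully separated, which the rule for naming the largest falls required. Hspa1b, an inducible HSP70, had 6.94, 7.07 and 3.16 TPM at 5 weeks and 15.5, 16.98 and 17.5 TPM at 2 weeks (-1.46 ± 0.30). Hspa1b, Hbb-bt and Rnaset2b have near-identical copies, between which reads can be split, so their levels are uncertain.

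Of the interferon response genes the GTPases Iigp1 and Igtp fell under all 5 scalings. Iigp1 had 13.4, 12.8 and 13.9 TPM at 5 weeks and 32.3, 32.0 and 34.1 TPM at 2 weeks, a difference of -1.24 ± 0.26 (adjusted p = 0.00016, named-gene scale 0.01). Igtp, which like Iigp1 guards against intracellular pathogens, had 6.44, 6.89 and 10.7 TPM at 5 weeks and 21.2, 20.5 and 25.2 TPM at 2 weeks, a difference of -1.39 ± 0.27 (named-gene scale 0.0201). The groups of both genes were separated, which the rule for naming the largest falls required, and Igtp was tested only because of its 2-week level. Both genes still fell without both doubted libraries (adjusted p = 0.0116 for Iigp1 and 0.000228 for Igtp). In VCP TG sham hearts Igtp lay at 6.10 to 13.5 TPM and Iigp1 at 13.03 to 20.1 TPM. Few other interferon genes passed. Of 18 tested, Ifi27l2a was the only other that fell on the main scale (-0.93, named-gene scale 0.0843), 0 rose, and the list median was -0.13. Over all genes tested 0.791% fell, and the median was 0.14.

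Cytosolic ribosomal proteins had a median of -0.26 over 78 tested genes, of which 5 fell, all under all 5 scalings, and 0 rose on the main scale. The median of all genes was 0.14, and 0.791% of them fell, 0.625% under all 5 scalings. On the named-gene scale 32 fell and 2 rose, against 3.55% and 6.19% of all genes tested. Rps13 had 351, 426 and 314 TPM at 5 weeks and 569, 976 and 742 TPM at 2 weeks, a difference of -1.04 ± 0.25 (adjusted p = 0.00265, named-gene scale 0.00497). Rpl22l1, Rps23, Rps24 and Rpl9 fell by 1.00, 0.83, 0.81 and 0.79. In these 5 genes every 5-week library lay below every 2-week library. Without both doubted libraries limma called 0 ribosomal genes and the list median was -0.02.

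Some subunits of the respiratory chain fell. Of 80 tested nuclear-encoded subunits 4 fell, all under all 5 scalings, and 0 rose on the main scale, with a median of -0.13. The median of all genes was 0.14, and 0.791% of them fell, 0.625% under all 5 scalings. On the named-gene scale 26 fell and 1 rose, against 3.55% and 6.19% of all genes tested. Cox5a, of cytochrome c oxidase, had 585, 702 and 645 TPM at 5 weeks and 1183, 1519 and 1601 TPM at 2 weeks, without overlap (-1.15 ± 0.26, adjusted p = 0.000702, named-gene scale 0.00114). Cox7c and Cox7a2, of the same complex, fell by 0.99 and 0.91, and Ndufc2, of complex I, by 0.77. Of 73 tested mitochondrial ribosomal proteins Mrps6 alone fell on the main scale (-0.80), and 14 fell on the named-gene scale. Of 27 tested genes of the tricarboxylic acid cycle 0 passed on the main scale and 5 fell on the named-gene scale, among them Sdhd and Mpc2 (-0.63 and -0.60 on the main scale). None of the genes of these 3 lists passed without both doubted libraries.

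Short transcripts were more frequent among the genes that fell. With the tested genes in 5 equal groups by annotated transcript length, 18 of the 57 genes that fell lay in the shortest group (median 632 bases), and 15, 14, 6 and 4 in the groups of rising length. Across all genes the Spearman correlation of the difference with length was 0.0768 in VCP TG hearts and 0.142 in WT hearts. The part of length in the falls of the ribosomal and respiratory genes was not tested.

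**Figure D3:**
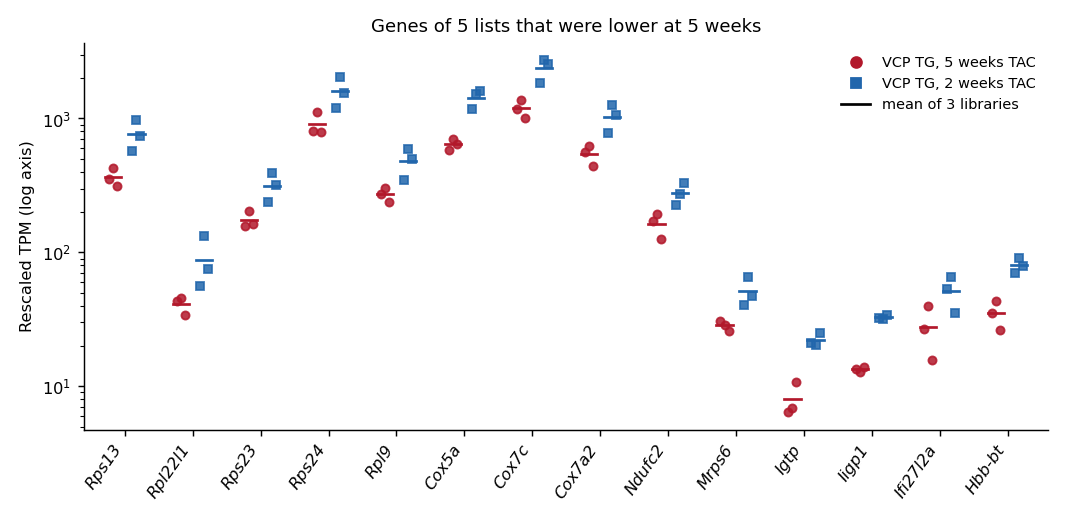
Rescaled TPM (log axis) of the genes that fell on the main scale in 5 lists: ribosomal, respiratory chain, mitochondrial ribosomal, interferon response and red blood cell genes. Red circles are the 3 VCP TG libraries of 5 weeks, blue squares the 3 of 2 weeks, and bars their means. Cox5a lies at 585 to 702 TPM at 5 weeks and 1183 to 1601 TPM at 2 weeks, and Iigp1 at 12.8 to 13.9 and 32.0 to 34.1 TPM.

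Of the partners of VCP, 19 were tested and Aspscr1 alone rose on the main scale, with 48.7, 74.1 and 42.2 TPM at 5 weeks and 22.9, 30.7 and 34.1 TPM at 2 weeks (0.87 ± 0.25, adjusted p = 0.02). Its groups did not overlap, and it rose under 4 of the 5 scalings. It passed in 1 of the 6 fits with 1 library left out, and not without both doubted libraries (adjusted p = 0.0667). ASPSCR1 (TUG) is an adaptor that takes VCP hexamers apart and holds glucose transporter vesicles in muscle and fat. Ubxn1, another adaptor, differed by 0.52 (adjusted p = 0.251, named-gene scale 0.0365). The list median was 0.18, near the 0.14 of all genes, and 1 rise among 19 is near the 4.65% of all genes tested that rose.

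Few markers of the other cell types passed on the main scale. Of 13 tested macrophage markers 0 rose and 0 fell, with a median of -0.16, and Lyz2 differed by -0.48 (adjusted p = 0.301). The complement and antigen presentation genes also had 0 calls among 18 (median -0.09), with H2-D1 at 0.72 (adjusted p = 0.0716). The 12 ventricular myocyte markers had 0 calls and a median of 0.21. Of 5 tested red blood cell markers Hbb-bt, a beta-globin, fell (-1.20 ± 0.25), and of 5 tested adipose markers Plin4 rose (1.07). Of 3 tested skeletal muscle markers Acta1 rose. Lymphocyte, neutrophil, mesothelial and conduction markers had 2, 1, 1 and 3 genes tested, with 0 calls on the main scale. Leaving out both doubted libraries, limma called 0 red blood cell markers, 0 adipose markers and 2 conduction markers. No marker of any of the 13 lists was at 0 in all 6 libraries, and the olfactory and vomeronasal receptors, which hearts are not known to use, were above 0 for 63.0% to 91.0% of genes at 5 weeks and 87.4% to 96.7% at 2 weeks.

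WT hearts differed between the time points in much the same direction. Of the 392 genes that passed in VCP TG hearts, 370 (94.4%) differed the same way in WT hearts, and 4255 of all 7204 genes tested lay higher at 5 weeks in WT. Across the 7204 genes the differences of the genotypes correlated with Pearson's r of 0.67 and Spearman's rho of 0.65, over genes that are not independent and from the same pair of tables. The early gene Egr1 differed by 3.01 ± 0.88 in WT, Nr4a1 by 2.69 ± 0.66, Junb by 2.34 ± 0.55 and Per1 by 1.12 ± 0.31. Medians in VCP TG and WT hearts were 1.24 and 1.04 for early genes, 1.41 and 0.96 for glucocorticoid and fasting genes, -0.26 and -0.29 for ribosomal genes and -0.13 and -0.39 for the respiratory chain. By limma 2 genes passed in WT (0.0278% of those tested), Ces5a, a carboxylesterase, at 1.65 and Nmt1, an N-myristoyltransferase, at 1.35. An unadjusted p below 0.05 was reached by 1143 genes in WT. WT early gene levels were more spread at 5 weeks, with Egr1 at 19.8 to 477 TPM, against 10.7 to 36.2 TPM at 2 weeks.

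**Figure D4:**
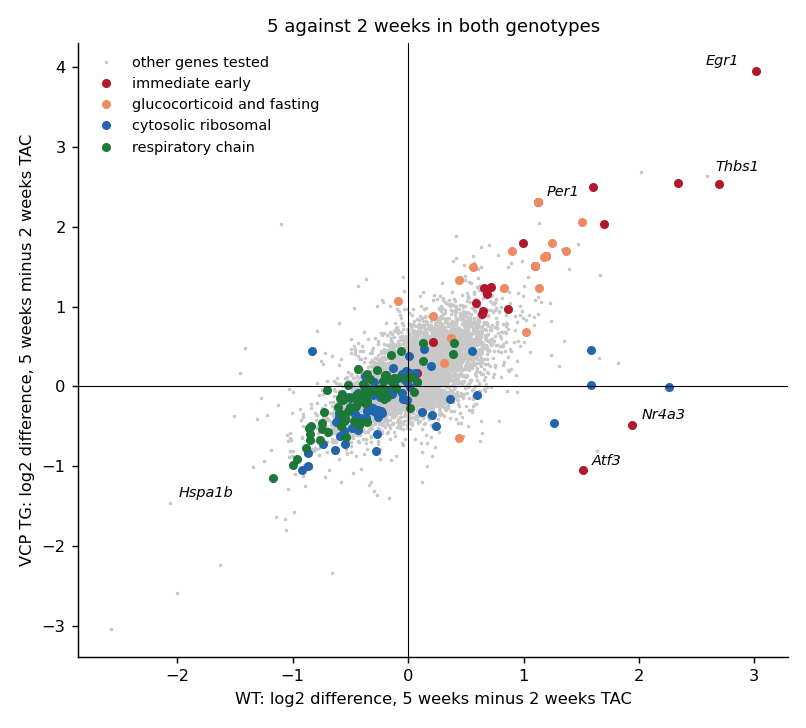
Log2 differences between 5 and 2 weeks of TAC in VCP TG hearts (vertical) and WT hearts (horizontal), 1 point for each of 7204 genes, with all tested members of 4 lists in colour. Immediate early genes that the glucocorticoid and fasting list also holds are in the colour of that list. Egr1 lies at 3.96 in VCP TG and 3.01 in WT, while Atf3 (-1.05 and 1.52) and Nr4a3 (-0.48 and 1.94) lie on opposite sides of 0.

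Tested directly, the difference between the genotypes in the change from 2 to 5 weeks gave 0 genes of 7204 (0%) past the threshold. Only a shift between the tables that both genotypes share cancels there. In VCP TG hearts Gm10800 took 16.2% to 29.9% at 2 weeks and 8.47% to 20.7% at 5 weeks. In WT hearts it took 2.82% to 7.73% at 2 weeks and 3.15% to 12.97% at 5 weeks. Such an unlike shift does not cancel, and the median difference between genotypes over all genes was 0.10. An unadjusted p below 0.05 was reached by 164 genes, and the other 4 scalings also gave 0 calls, with 213 to 259 such genes. Among the genes higher in VCP TG with the smallest p were Fam117b, Depp1, Cars, Tnk2 and Mctp1. Fam117b had 20.7, 22.8 and 24.2 TPM at 5 weeks and 7.48, 8.50 and 8.42 TPM at 2 weeks, differing by 1.37 ± 0.27 in VCP TG hearts and -0.04 ± 0.22 in WT hearts. Cars, the cysteinyl-tRNA synthetase, differed by 1.14 ± 0.26 in VCP TG hearts and 0.10 ± 0.17 in WT hearts. These differences between genotypes, 1.41 ± 0.34 for Fam117b and 1.03 ± 0.26 for Cars, had an adjusted p of 1.

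The smallest p among genes lower in VCP TG belonged to Ccdc167, Ces5a, Erh, Igtp, Sema4a and Paqr7. Igtp differed by -1.39 ± 0.27 in VCP TG hearts and -0.16 ± 0.24 in WT hearts, a difference between genotypes of -1.23 ± 0.36 (adjusted p = 1). Without the 4 TAC libraries whose Vcp level went against their label, a choice made with those levels known, 5 genes passed: Atf3 (-3.66 ± 0.50, adjusted p = 0.00176), Hbb-bt (-2.20 ± 0.38, adjusted p = 0.0032), Igtp (-1.85 ± 0.38, adjusted p = 0.0231) and Agt, angiotensinogen (-3.00 ± 0.64, adjusted p = 0.0424), were lower in VCP TG, and Fnip2, a partner of folliculin (1.78 ± 0.35, adjusted p = 0.014), was higher. Agt, Fnip2 and Nmt1 were named after their values were seen.

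**Figure D5:**
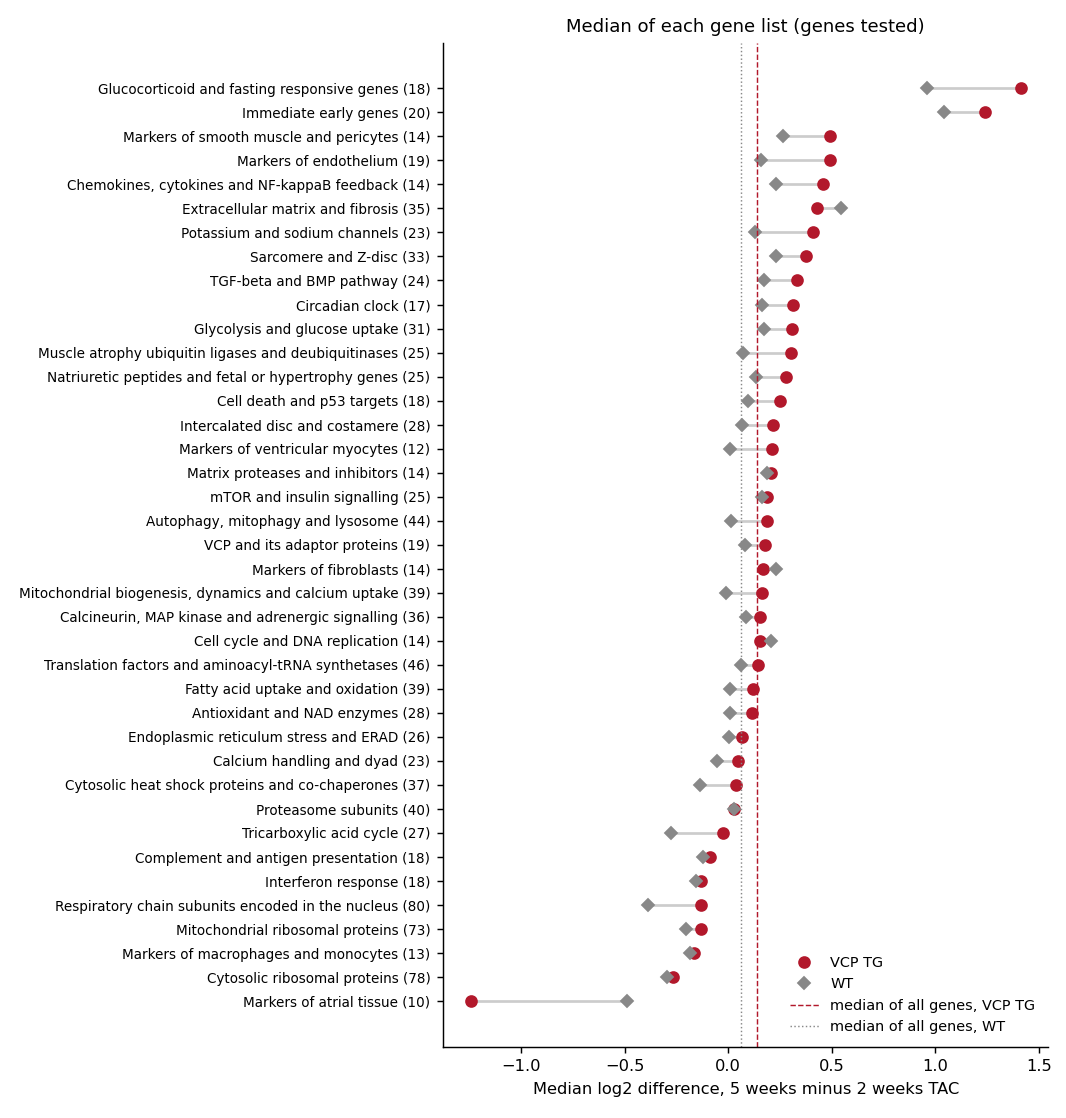
Median log2 difference between 5 and 2 weeks of TAC for each list with at least 8 genes tested, in VCP TG hearts (red circles) and WT hearts (grey diamonds), with the number of genes tested in brackets. Vertical lines mark the medians of all genes, 0.14 in VCP TG and 0.06 in WT. Early and glucocorticoid genes lie at the right in both genotypes, and atrial markers at the left.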

How the data were processed

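Total RNA was extracted from left ventricles with the Qiagen miRNeasy kit and made into Illumina TruSeq Stranded mRNA libraries, per the labels' protocols. TPM values were deposited by the authors in 2 tables, 1 of sham and 2-week libraries and 1 of 5-week libraries, with the same 30735 Ensembl identifiers. Trimmomatic 0.35, kallisto 0.43.1, STAR 2.5.4b and DESeq2 on GRCm38 are named in the submitters' processing notes, and the sources used here do not say which of them made the TPM. TPM is not a count and keeps no depth, so no count model, interval or floor was used.

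Identifiers were named from GENCODE M21, which held 30074 of them. TPM of each library was rescaled to 1000000 over its nuclear protein-coding genes. Named genes of at least 5 TPM as deposited in at least 3 of the 6 libraries were tested, 7204 in all. Of these, 135 reached that minimum in 1 time point alone, and 33 of the 135 passed the test. The 135 included Egr1, Junb, Nr4a1, Btg2, Thbs1, Ddit4, Kcna5 and Fam117b, which reached it at 5 weeks alone. They also included Angpt1, Retnla, Hspa1b, Igtp and Efemp1, which reached it at 2 weeks alone. Each of these was tested only because of the group where it was higher. limma 3.58.1 in R 4.3.3 was fitted to log2(rescaled TPM + 1) computed from the deposited TPM, with trend and robust settings. Tests were two-sided, p-values of all 7204 genes were adjusted by Benjamini-Hochberg, and 0.05 was the threshold. The VCP TG comparison used its 6 libraries alone. The WT comparison and the difference between genotypes used all 14 TAC libraries. On simulated data, 100 genes were changed by a log2 of 1 and 100 by a log2 of 2. A fit of the VCP TG design recovered 71% and 92% of them with 8 false calls. A fit of the difference between genotypes recovered 52% and 95% with 16 false calls. Recovery and false calls on the main scale were not tested. There the median SD of log2 levels in VCP TG hearts was 0.268 at 2 weeks and 0.271 at 5 weeks. On the named-gene scale it was 0.151 at 2 weeks and 0.187 at 5 weeks.

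Same-numbered libraries of the time points deviated together, with correlations of 0.311, 0.316 and 0.147, so the fit with the replicate number as a block is also given. What the numbers stand for is not in the labels. Named genes were Vcp, 8 genes of hypertrophy and fibrosis, the 12 largest rises and falls without overlap at a mean of at least 10 rescaled TPM, the 6 smallest p per direction of the difference between genotypes, and list members. The comparison, its members and the 46 gene lists were chosen with earlier results of these data known. Alternatives were other scalings, pseudocounts of 0.1 and 5, other filters, other sets of libraries, the block and leaving out each library. Scaling to named genes was added after seeing the data. Some genes that the naming rule or a list holds are not reported here.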

Additional observations from a re-analysis of the deposited data

Results flagged for a closer look

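Among the 4 WT libraries of 2 weeks of TAC, replicate 1 stood far from the others in 2 genes. Its Vcp level was 344.5 TPM, against 144.4 to 148.2 TPM in the other 3. Its Nppa level, the atrial natriuretic peptide, was 15030 TPM, against 97.4 to 260 TPM in the other 3. A gap of this kind is found by chance in about 1 in 20 groups. Among the 6 VCP TG libraries the predicted gene Gm10800, which no comparison tested, took up to 29.87% of nuclear protein-coding TPM, in a library of 2 weeks, against 8.47% to 20.7% in the other 5. Its part in the differences was not tested.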

How the results depend on the processing

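With 3 libraries per time point and no depth in TPM, the number of genes called moved by over 1.5 times under 18 of 30 alternatives, and the cause was not tested. The other 12, among them pseudocounts of 0.1 and 5 (392 and 390), a minimum of 1 TPM (327) and TPM as deposited (470), stayed within that range. The 392 genes called in VCP TG hearts became 603 with quantile normalization, 595 with a median-of-ratios factor, 702 scaled to named genes, 87 with no filter on low values, 802 with the replicate block, 37 in the fit of 14 libraries, 0 in that of 22 and 133 without both doubted libraries. With 1 library left out they were 184 to 313, lowest without VCP TG 2 weeks replicate 2, and 212, 252 and 218 without VCP TG 2 weeks replicate 3 and VCP TG 5 weeks replicates 1 and 2. Scaled to named genes they were 834 with the replicate block, 20 in the fit of 14 libraries, and 67 to 470 with 1 library left out. These were 105, 74 and 135 without VCP TG 2 weeks replicates 1, 2 and 3, and 67 without VCP TG 5 weeks replicate 2. The 2 genes called in WT hearts became 0 on deposited TPM, 0 with quantile normalization, 48 with a median-of-ratios factor, 23 scaled to named genes, 25 with the replicate block and 1 with the 8 WT libraries alone. They were 1 to 282 with 1 library left out, 282 without WT 5 weeks replicate 1, 23 without WT 5 weeks replicate 4 and 4 without WT 2 weeks replicate 1. The difference between genotypes gave 0 genes with any 1 library left out and 5 without the 4 libraries of Vcp level against the label.

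The sign of some genes that did not pass turned. Vcp ran from -0.75 to 0.0329 with 1 library left out, 0.0329 being without the library labelled VCP TG 5 weeks replicate 3, and was 0.0677 without both doubted libraries, where Nppa was 0.46. Atp2a2 was 0.0079 with quantile normalization. Postn ran from -0.0757 to 0.95, and was -0.075 and -0.0584 scaled to named genes without VCP TG 2 weeks replicate 3 and without VCP TG 5 weeks replicate 2. Paqr7 ran from -0.15 to 0.0525, was 0.0104 without VCP TG 2 weeks replicate 1, and was 0.0526 scaled to named genes without VCP TG 2 weeks replicate 1. Of 117 named genes 92 passed, 45 of these with any 1 library left out, and 20 of them also scaled to named genes. Without both doubted libraries 46 of the 117 passed. Among these were Col1a1, Postn and Nr4a3, which did not pass on the main scale with every library in the fit.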

Other observations

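Several lists that no paragraph above describes held a few genes that rose at 5 weeks relative to 2 weeks in VCP TG hearts. Over all genes tested 4.65% rose and 0.791% fell, so small counts in lists of this size are not read as results about the lists. Of 25 tested genes of muscle atrophy and protein turnover 4 rose and 0 fell on the main scale, with a median of 0.30 against 0.14 for all genes. Klhl38, a muscle ubiquitin ligase adaptor, had 42.6, 53.6 and 42.7 TPM at 5 weeks and 16.2, 28.9 and 26.0 TPM at 2 weeks, and rose by 0.97 under all 5 scalings, with a difference of -0.01 in WT hearts. Of 25 tested mTOR and insulin signalling genes 3 rose. Foxo3, a transcription factor of atrophy and stress resistance, had 62.2, 76.0 and 60.8 TPM at 5 weeks and 22.5, 30.9 and 36.1 TPM at 2 weeks, and rose by 1.14, against a difference of 0.22 in WT hearts. Of 18 tested cell death genes 3 rose, among them Fas, the death receptor, which rose by 1.18 under all 5 scalings. None of these genes passed in the test of the difference between genotypes.

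Metabolic genes differed one by one. Bdh1, which oxidizes the ketone body beta-hydroxybutyrate, had 78.3, 114 and 96.2 TPM at 5 weeks and 36.4, 38.02 and 39.9 TPM at 2 weeks, without overlap, and rose by 1.29 under all 5 scalings. It was among 3 of 39 tested genes of fatty acid and ketone use that rose on the main scale, where 4.65% of all genes tested rose. The median of that list was 0.12, against 0.14 for all genes. Nmrk2, a muscle kinase that makes NAD from nicotinamide riboside, rose by 1.26, while the glutathione peroxidase Gpx1 fell by 0.87. Of 37 tested heat shock proteins and co-chaperones Hspb7 rose by 0.93, and Hspa1b and Dnaja1 fell by 1.46 and 0.78. Of 14 tested matrix proteases and their inhibitors 4 rose on the main scale, among them Adamts1, which rose by 1.47 and passed under 4 of the 5 scalings.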
